A study of Mus musculus with 6 samples.

Results

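The genes described here are 9 genes used to tell apart the states of tissue macrophages: Mrc1, Cd163, F13a1, Fcrls, Msr1, Trem2, Gpnmb, Hmox1 and Arg1. They were taken by symbol from the 30406 genes listed for every library, and followed in nuclei with at least 1 UMI (unique molecular identifier, 1 per captured transcript) of Ptprc, the gene of the pan-leukocyte protein CD45. These Ptprc-positive nuclei numbered 1843 of the 8073 nuclei that passed the filter. Single nuclei came from the tibial periosteum of wild-type C57BL6 mice of both sexes aged 12 weeks, either uninjured or after an open fracture of the tibia that was not stabilized. There were 6 libraries, with 2 of uninjured periosteum, 2 of periosteum and hematoma at day 3, 1 at day 5 and 1 at day 7 after fracture. Each library pooled tissue of several animals, so animals could not be told apart. The labels give 4 mice for uninjured periosteum and 4 to 9 for injured tibias of days 5 and 7. The p-values of the day 3 comparison measure the spread between pools. Where library was a block, they measure how the difference between nuclei of the same library varied over libraries, which also span time points. The bone marrow was flushed from uninjured tibias, while fractured tibias gave periosteum scraped together with its hematoma.

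Macrophages engulf debris and dead cells and help to direct wound repair. Resident macrophages of connective tissue are known for endocytic receptors such as the mannose receptor, whereas macrophages that arise from blood monocytes in a wound can switch on enzymes of arginine and heme metabolism and a lysosomal, lipid-handling program. In a fracture they clear the hematoma, whose red cells are a source of heme and whose fibrin is the first scaffold of the callus.

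The libraries were unequal, which bears on every value. Ptprc-positive nuclei numbered 4 and 62 in the uninjured replicates 1 and 2, 126 and 1056 in the day 3 replicates 1 and 2, 513 at day 5 and 82 at day 7, or 0.621% to 61.4% of the nuclei that passed. Their median depth lay between 765.5 and 5018 UMIs per nucleus. Levels are given as CPM, the UMIs of a gene relative to all UMIs of the same nuclei on the usual CPM scale. In the 4 nuclei of uninjured replicate 1 a count of 3 UMIs already stood for 423 CPM, so its values are given as UMIs. Libraries shared at most 7 barcodes and none among Ptprc-positive nuclei. The summed CPM of 14 macrophage core genes (Csf1r, Adgre1, Mertk, C1qa and others) was 3172 in uninjured replicate 2, 1742 and 3483 in the day 3 replicates, 2226 at day 5 and 1450 at day 7, and in uninjured replicate 1 it rested on 1 UMI, with 13 of the 14 genes at 0. Other cell types contributed too. The summed CPM of 6 myogenic genes was 10670 in uninjured replicate 2, 5218 and 3686 in the day 3 replicates, 367 at day 5 and 2562 at day 7. The 6 stromal genes reached 1441 in day 3 replicate 2, 2398 at day 5 and 1869 at day 7. The 6 chondrocyte genes reached 1662 at day 7 and the 7 B and plasma cell genes 2197 in uninjured replicate 2. The 10 neutrophil genes reached 1035 in day 3 replicate 2, and the 9 osteoclast genes reached 1118 and 1219 at days 5 and 7. Since levels are summed over such a mixture, fewer macrophages and less RNA per macrophage cannot be told apart.

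On GRCm38 (GENCODE release M21) the genes lie on several chromosomes. Mrc1 (ENSMUSG00000026712) spans chr2:14229392-14332057 and Cd163 (ENSMUSG00000008845) chr6:124304656-124330527, both on the plus strand. F13a1 (ENSMUSG00000039109) spans chr13:36867178-37050244, Fcrls (ENSMUSG00000015852) chr3:87250758-87263738, Msr1 (ENSMUSG00000025044) chr8:39581685-39642673 and Arg1 (ENSMUSG00000019987) chr10:24915221-24927484, all on the minus strand. Trem2 (ENSMUSG00000023992) spans chr17:48346401-48354147, Gpnmb (ENSMUSG00000029816) chr6:49036546-49070929 and Hmox1 (ENSMUSG00000005413) chr8:75093621-75100589, on the plus strand.

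The 250 bases before the start of transcription are printed for Mrc1, Cd163 and F13a1, because Mrc1 and Cd163 were the pair found together most often relative to their shares and F13a1 accompanied both. The sequences are from RefSeq on GRCm38.p6, written 5′ to 3′ on the strand of the gene, at chr2:14229164-14229413 (plus), chr6:124304401-124304650 (plus) and chr13:37050245-37050494 (minus). Capitals mark matches to the letters searched.
Mrc1: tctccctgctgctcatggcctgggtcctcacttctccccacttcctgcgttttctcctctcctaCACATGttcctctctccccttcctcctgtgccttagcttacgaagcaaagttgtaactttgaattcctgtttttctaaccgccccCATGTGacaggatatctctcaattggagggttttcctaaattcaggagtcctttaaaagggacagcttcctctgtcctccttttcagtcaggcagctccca
Cd163: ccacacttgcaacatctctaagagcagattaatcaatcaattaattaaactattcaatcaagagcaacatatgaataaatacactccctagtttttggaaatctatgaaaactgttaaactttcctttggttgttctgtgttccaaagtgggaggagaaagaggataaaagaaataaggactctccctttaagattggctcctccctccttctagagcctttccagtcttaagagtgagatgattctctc
F13a1: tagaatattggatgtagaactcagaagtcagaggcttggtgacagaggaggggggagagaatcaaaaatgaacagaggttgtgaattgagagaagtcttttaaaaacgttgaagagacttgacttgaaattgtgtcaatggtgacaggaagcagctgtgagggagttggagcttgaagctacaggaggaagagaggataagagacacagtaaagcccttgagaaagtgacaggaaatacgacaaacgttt
Searched on both strands were the antioxidant response element TGACNNNGC, the E-boxes CACGTG and CATGTG, the AP-1 site TGANTCA and the PU.1 core GAGGAAGT, of which the first and the fourth can overlap. Mrc1 held CATGTG, read on the plus strand from position -101 and on the minus strand, as CACATG, from position -186 (position -1 is the last base before the start). Of 32851 promoters of this length, 12.3% held CATGTG, 10.2% TGACNNNGC, 6.75% TGANTCA, 6.02% CACGTG and 2.44% GAGGAAGT. None of these letters was in the Cd163 and F13a1 windows or in those of Fcrls and Gpnmb, and Trem2 held 1 AP-1 match (TGAATCA) at -9.

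To describe the level of these genes in the immune nuclei of the periosteum, Ptprc-positive nuclei were compared with the other nuclei of the same library. All 9 genes were higher in Ptprc-positive nuclei, by 2.75 to 4.58 on the log2 scale, and these nuclei held between 75.5% (Gpnmb) and 92.2% (Msr1) of a gene's UMIs. Of the 10910 genes tested over the 6 libraries with edgeR's quasi-likelihood test and library as a block, 36.4% were called at an adjusted p under 0.05. Called higher were 15.1% of all genes tested and 9 of these 9. The 9 are macrophage genes chosen with earlier results of these data known, so this count is a description and no test of the choice. The median log2 fold change was 3.91 for the 9 genes and -0.10 for all genes tested.

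The scavenger and endocytic receptors are given first. Mrc1, the mannose receptor of resident-type macrophages, reached 1653, 846, 849, 585 and 319 CPM in Ptprc-positive nuclei of uninjured replicate 2, the day 3 replicates, day 5 and day 7, against 29.2, 78.7, 67.4, 35.6 and 30.4 CPM in the other nuclei. The ranges did not overlap in these 5 libraries, and uninjured replicate 1 had 0 Mrc1 UMIs (log2 fold change 3.91 ± 0.35 SE, adjusted p = 8.3e-10). Msr1, the class A scavenger receptor that binds modified lipoproteins, had the largest difference of the 9 at 4.58 ± 0.30 (adjusted p = 6.5e-12). Cd163, which takes up hemoglobin bound to haptoglobin, differed by 4.12 ± 0.33 (adjusted p = 1.3e-10), and Fcrls, an Fc receptor-like protein of mouse macrophages, by 4.32 ± 0.41 (adjusted p = 2.3e-09).

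Enzymes and genes of the phagocytic state were higher as well. Arg1, the arginase that turns arginine into ornithine and urea, was at 170, 252 and 81.9 CPM in the Ptprc-positive nuclei of the day 3 replicates and day 5, against 14.5, 29.1 and 3.32 CPM in the others (3.90 ± 0.34, adjusted p = 1.4e-09). Trem2, a lipid-sensing receptor of phagocytes, differed by 4.10 ± 0.37 (adjusted p = 1.8e-09) and F13a1, the catalytic subunit of the factor that cross-links fibrin, by 3.44 ± 0.44 (adjusted p = 7.1e-07). The smallest differences were those of Hmox1, the heme oxygenase that degrades heme to biliverdin, at 3.35 ± 0.33 (adjusted p = 4.6e-09), and Gpnmb, a lysosomal glycoprotein of phagocytes, at 2.75 ± 0.29 (adjusted p = 1.4e-08). A nucleus without a Ptprc UMI can still be a macrophage: 1335 of the 6230 negative nuclei had at least 2 UMIs of the core genes, and they held 50% (Gpnmb) to 76% (Arg1) of the UMIs that lay outside Ptprc-positive nuclei. The difference is measured against that background.

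**Figure D1:**
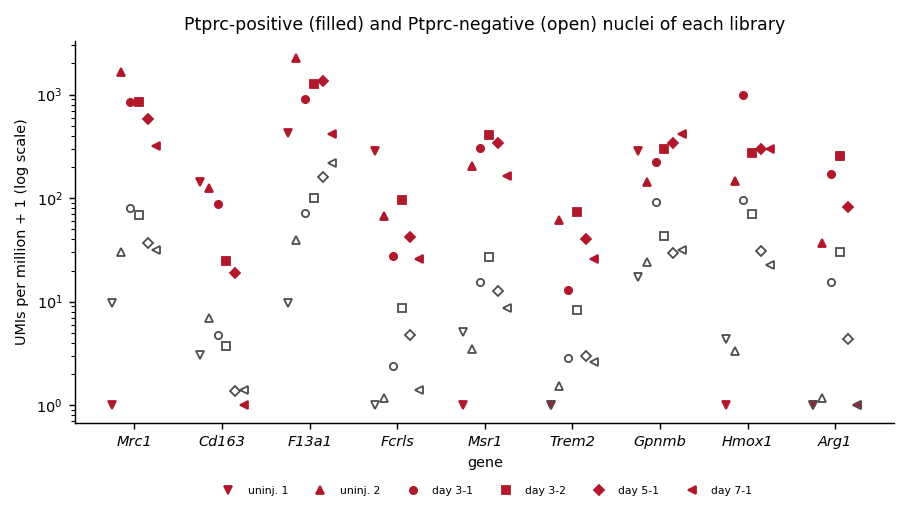
Levels of the 9 genes (CPM + 1, log axis) in Ptprc-positive (filled) and Ptprc-negative (open) nuclei, with a symbol for each library and values of 0 drawn at 1. Every gene was higher in the positive nuclei by edgeR's test, from 2.75 (Gpnmb) to 4.58 (Msr1) on the log2 scale.

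Other genes of macrophages were examined by list, with counts of calls given beside 15.1% called higher and 21.3% called lower among all genes. The lists were also chosen with earlier results known, so their counts are descriptions too. All 12 tested core genes were higher (median 3.86), among them Adgre1 at 4.49 ± 0.35, Csf1r at 4.20 ± 0.30 and C1qb at 3.95 ± 0.31. Of 4 tested resident-type genes 3 were higher, Siglec1 (4.26 ± 0.35), Stab1 (2.63 ± 0.27) and Maf (1.04 ± 0.28). Heme and iron genes rose in 9 of 12 (median 1.30), led by Slc11a1, a phagosomal metal transporter, at 4.22 ± 0.31 and Blvrb, a biliverdin reductase, at 2.06 ± 0.26. Lysosome and lipid genes were higher in 16 and lower in 1 of 20 (median 1.81), with Tfec at 4.37 ± 0.31, Apoe at 3.35 ± 0.30 and Lgals3 at 2.04 ± 0.23. The wound and glycolytic list did not move as a whole: 2 of 11 were higher, the matrix protein genes Spp1 (2.09 ± 0.35) and Thbs1 (0.71 ± 0.26), and 2 were lower, Slc7a2 (-1.32 ± 0.24) and Vegfa (-0.99 ± 0.27). Scavenger receptors outside the 9 genes were higher in 2 (Stab1 and Scarb2) and lower in 1 (Colec12) of 6, and none of the 10 inflammatory genes had enough UMIs to be tested. The stromal, endothelial and myogenic lists were lower in 6 of 6 genes each. Lower too were 4 of 5 pericyte and smooth muscle genes and 3 of 3 chondrocyte genes. Of 3 Schwann cell genes 1 was higher and 1 lower, and of 3 adipocyte genes 1 was higher and 0 lower.

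The time course is given by library, since days 5 and 7 had 1 library each and were not tested. Exact Poisson 95% intervals cover counting error only. Mrc1 stood at 1653 CPM (1524 to 1790) in uninjured replicate 2, 846 (750 to 950) and 849 (825 to 872) in the day 3 replicates, 585 (548 to 624) at day 5 and 319 (237 to 419) at day 7. In these sums over all Ptprc-positive nuclei the order ran from uninjured to day 7. Apart from the 2 day 3 libraries no neighbouring intervals overlapped. Cd163 had the same order at a low level, with 123, 86.4, 23.7, 17.9 and 0 CPM in the same libraries, but uninjured replicate 2 and day 3 replicate 1 did not differ beyond counting error, nor did day 3 replicate 2, day 5 and day 7. Uninjured replicate 1 held no UMI of Mrc1 and 1 of Cd163.

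F13a1 and Fcrls were present at every time point. F13a1 was highest in uninjured replicate 2 at 2252 CPM (2101 to 2412), followed by day 5 at 1361, the day 3 replicates at 908 and 1252 and day 7 at 419, with 3 UMIs in uninjured replicate 1. In uninjured replicate 2, 237 of the 823 F13a1 UMIs lay in 1 nucleus, which the interval does not reflect. Day 5 was at 1.26 times the day 3 mean of 1080 ± 243 (SD, n = 2). This difference was close to the spread of the day 3 pools. Fcrls was at 65.7, 26.8, 93.9, 41.6 and 25 CPM in uninjured replicate 2, the day 3 replicates, day 5 and day 7, with 2 UMIs in uninjured replicate 1. Its day 3 libraries enclosed the values of uninjured replicate 2 and day 5, and day 3 replicate 1 and day 7 did not differ beyond counting error.

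Msr1, Trem2 and Gpnmb mark lipid-laden and phagocytic states. Msr1 was at 205 CPM in uninjured replicate 2, 304 and 404 in the day 3 replicates, 340 at day 5 and 162 at day 7. The day 3 and day 5 values were the highest, although the intervals of day 3 replicate 1 (248 to 369) and uninjured replicate 2 (161 to 257) overlapped. Trem2 never exceeded 72.4 CPM (day 3 replicate 2), was at 60.2 in uninjured replicate 2 and had 4 UMIs in day 3 replicate 1. Gpnmb was at 142 CPM (106 to 187) in uninjured replicate 2, 220 and 299 in the day 3 replicates, 342 (313 to 372) at day 5 and 419 (324 to 532) at day 7. Days 5 and 7 did not differ beyond counting error, nor did uninjured replicate 2 and day 3 replicate 1 (173 to 277). It was the only one of the 9 genes with its highest value at day 7 among the 5 libraries with more than 4 Ptprc-positive nuclei.

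Arg1 was highest in both day 3 libraries and Hmox1 in 1 of them. Hmox1 was at 145 CPM (109 to 190) in uninjured replicate 2, 1001 (897 to 1114) and 269 (256 to 283) in the day 3 replicates, 294 at day 5 and 300 at day 7, with 0 UMIs in uninjured replicate 1. Of the 53 Hmox1 UMIs of uninjured replicate 2, 43 came from 1 nucleus, which the interval does not reflect. The 2 day 3 libraries differed from each other more than day 3 replicate 2 differed from day 5 or day 7. Arg1 was at 35.6 CPM (18.9 to 60.8) in uninjured replicate 2, 170 (129 to 220) and 252 (240 to 265) in the day 3 replicates, 81.9 (68.3 to 97.3) at day 5 and 0 (0 to 23.1) at day 7. The 13 Arg1 UMIs of uninjured replicate 2 came from 3 nuclei. Arg1 was higher in each day 3 library than in the other libraries with more than 4 Ptprc-positive nuclei, and the interval of day 7 overlapped that of uninjured replicate 2.

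**Figure D2:**
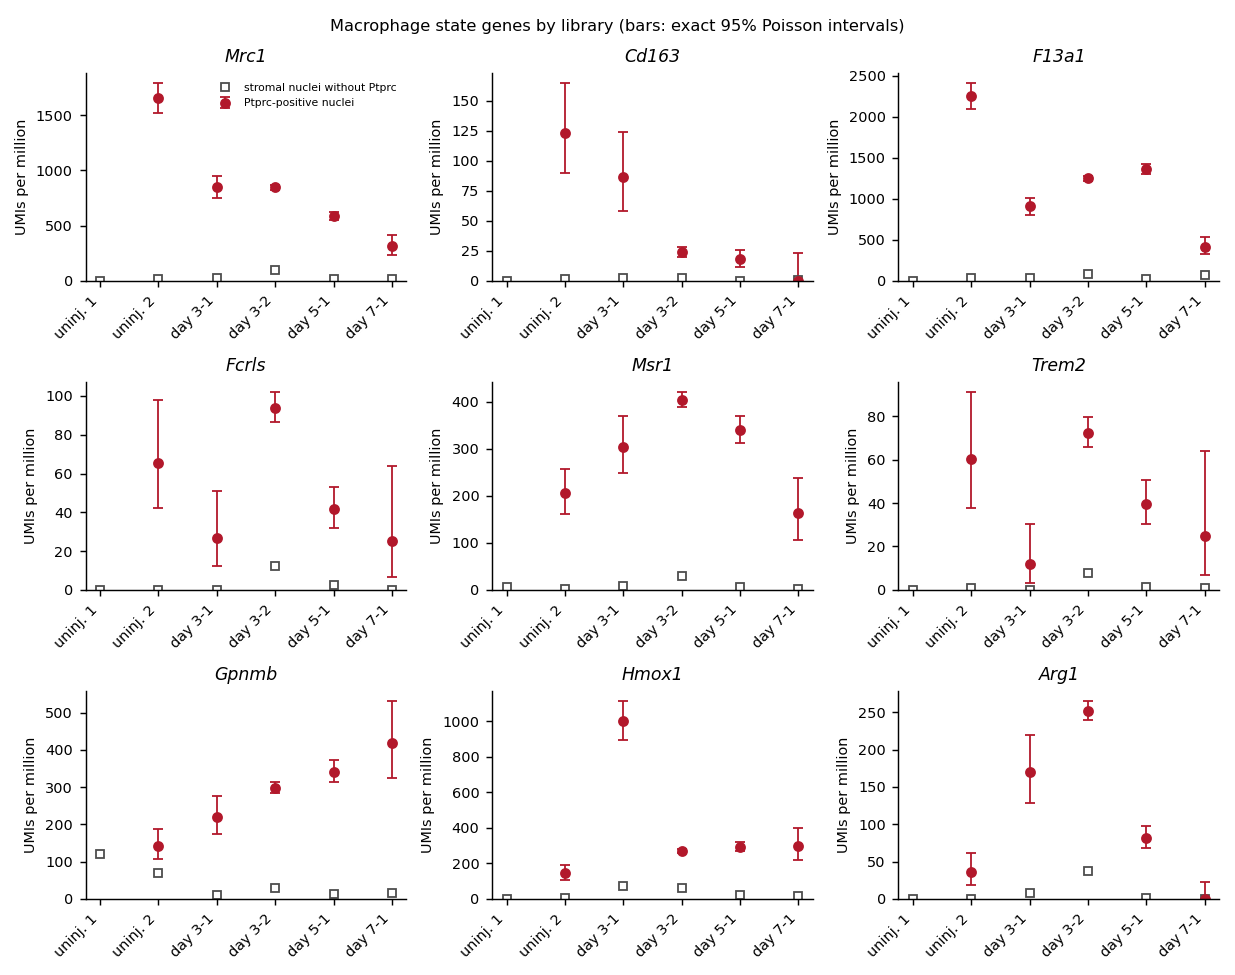
Levels of the 9 genes in Ptprc-positive nuclei by library (CPM with exact Poisson 95% intervals), beside stromal nuclei without Ptprc. Uninjured replicate 1 is left out of the Ptprc-positive points because it has 4 such nuclei. Mrc1 falls from 1653 in uninjured replicate 2 to 319 at day 7, Gpnmb goes from 142 to 419, and Arg1 is highest in both day 3 libraries.

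The question of which genes change by day 3 of healing was put to the Ptprc-positive nuclei as library sums, with 2 pools of day 3 against 2 of uninjured periosteum. None of the 9 genes was called by edgeR at an adjusted p under 0.05, and 2, Arg1 and Hmox1, had an unadjusted p under 0.05, as did 327 of the 6031 genes tested. Of all genes tested 0.713% were called, 0.133% higher and 0.58% lower, and DESeq2 also called 0 of the 9. Arg1 had the largest log2 fold change of the 9, 2.74 ± 0.89 (SE, adjusted p = 0.156), and Hmox1 followed at 2.63 ± 0.99 (adjusted p = 0.372). Msr1 was at 1.21 and Gpnmb at 0.91, while Mrc1 (-0.06), Trem2 (-0.20), Fcrls (-0.23), F13a1 (-0.24) and Cd163 (-1.10) were at or below 0. Their median was -0.06 and that of all genes tested 0.15. A missed call in this comparison, with 4 nuclei in 1 of the pools, does not show that levels were equal.

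The call for Arg1 and Hmox1 depended on the nuclei entered. Of Ptprc-positive nuclei with at least 2 core UMIs uninjured replicate 1 had none, so that the lone uninjured library was assumed to vary like the others. In these nuclei Arg1 was at 43.9 CPM in uninjured replicate 2 and 208 and 282 in the day 3 replicates, a fitted difference of 2.53 ± 0.58. The 12 Arg1 UMIs of uninjured replicate 2 came from 2 of 40 nuclei, with 10 of them in 1 nucleus. Among core nuclei with or without Ptprc, chosen after seeing the data, Arg1 stood at 0 and 5.03 CPM in the uninjured libraries and 118 and 205 at day 3, without overlap, and the fitted difference was 5.28 ± 0.65 (adjusted p = 0.0328), where 2.19% of 11213 genes were called, 0.276% higher and 1.92% lower. Among all 8073 nuclei, also chosen after seeing the data, Hmox1 was at 3.37 and 11 CPM in uninjured and 217 and 190 at day 3 (4.80 ± 0.57, adjusted p = 0.0375). Gpnmb then was at 17.5 and 30.5 against 108 and 196 CPM (2.67 ± 0.36, adjusted p = 0.0408), Arg1 at 0 and 2.33 against 35.6 and 163 CPM (5.88 ± 0.99, adjusted p = 0.0520), and 2.14% of 13848 genes were called, 0.397% higher and 1.75% lower. Both sets include the larger share of immune nuclei at day 3. In core nuclei with or without Ptprc, Ptprc itself was at 0 and 177 CPM in uninjured and 328 and 1126 CPM at day 3. The Ptprc-positive nuclei differed in make-up as well. Those with at least 2 core UMIs were 0 of 4 and 40 of 62 in uninjured and 91 of 126 and 875 of 1056 at day 3. The part of these shares in the fitted differences was not tested.

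No pathway list gave a call at day 3 in Ptprc-positive nuclei. The heme and iron list had 9 of 10 genes above 0 with a median log2 fold change of 0.54, against 0.15 for all genes (3638 of 6031 above 0), and 3 with an unadjusted p under 0.05: Slc7a11, a cystine transporter (2.16 ± 0.85), Gclm, of glutathione synthesis (1.85 ± 0.90), and Txnrd1, a thioredoxin reductase (1.78 ± 0.85). The lysosome and lipid list had a median of 0.49 with 0 of 18 called, its smallest p-values belonging to Fabp4 (-2.39) and Lpl (-2.18), lipid genes that adipocytes also express. Of the wound and glycolytic list 0 of 10 was called, Hif1a being at 1.93 ± 0.81. Il1b, the only inflammatory gene tested, was at 2.27 ± 0.93 (adjusted p = 0.481), the resident-type list had 0 of 5 called (median -0.32), and scavenger receptors outside the 9 genes had 0 of 6 (median -0.38). DESeq2 also called 0 in every pathway list. Among the marker lists, the myogenic gene Myh4 (-4.67 ± 0.96, adjusted p = 7.5e-04) and the B cell gene Bank1 (-2.91 ± 0.74, adjusted p = 0.0162) were lower at day 3, and the part of other cell types in the members' values was not tested.

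To set the libraries on 1 depth, every nucleus was thinned at random to 500 UMIs, which left out 1 shallower Ptprc-positive nucleus each of uninjured replicate 2 and day 5. In uninjured replicate 2, 29.5% (exact binomial 95% interval 18.5 to 42.6) of 61 Ptprc-positive nuclei had Mrc1, in the day 3 replicates 30.2% and 17.3%, 22.5% at day 5 and 7.32% at day 7. Unthinned, the Mrc1 shares were 45.2%, 45.2%, 42.4%, 45.4% and 15.9% in the same order. Stromal nuclei without Ptprc, which should lack most of these genes, had Mrc1 in 0% to 5.58% after thinning. Their median depths were 1572 to 3813 UMIs against 765.5 to 5018 in Ptprc-positive nuclei. Unthinned, their Mrc1 shares were 3.17%, 6.67%, 21.5%, 4.08% and 3.27% in uninjured replicate 2, the day 3 replicates, day 5 and day 7. Arg1 was found in 8.73% and 6.34% at day 3 and 3.71% at day 5, against 1.67%, 2.58% and 0.181% in stromal nuclei of the same libraries, and in 0 of 82 nuclei at day 7 (exact interval up to 4.40%). The day 3 intervals for Arg1 (4.44 to 15.1 and 4.95 to 7.99) overlapped those of stromal nuclei (0.203 to 5.89 and 0.951 to 5.52). The unthinned Arg1 shares were 21.4%, 16.3% and 7.80% at days 3 and 5, against 2.5%, 7.73% and 0.453% in stromal nuclei. For Hmox1 the shares were 26.2% and 8.52% in the day 3 replicates, 9.57% at day 5 and 9.76% at day 7 (stromal 1.67%, 4.29%, 0.907% and 1.44%). Unthinned they were 47.6%, 27.7%, 20.7% and 15.9% (stromal 11.7%, 18.5%, 5.35% and 3.06%). In 44 of 54 combinations of gene and library the thinned Ptprc-positive share was above the thinned stromal share. Gpnmb was found in stromal nuclei of uninjured periosteum too, at 121 and 69.3 CPM against 10.4 to 28.9 CPM after fracture, so that they give no background for this gene. In uninjured replicate 2 the thinned Gpnmb shares were 4.92% in Ptprc-positive and 4.14% in stromal nuclei.

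Transcripts were concentrated in few nuclei. Of 1720 Arg1 UMIs in Ptprc-positive nuclei, 50% lay in 21 of the 242 nuclei with a UMI, and 1 nucleus held 133. For Cd163 9 of 68 nuclei held 50% of 246 UMIs. F13a1 and Mrc1 reached 452 and 223 UMIs in a nucleus, with 50% of the UMIs in 78 of 880 and 69 of 779 nuclei. Msr1 and Trem2 were more evenly spread, with 50% of the UMIs in 103 of 722 and 84 of 312 nuclei. Of the 1843 nuclei, 1392 had a UMI of any of the 9 genes.

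Clusters of the Ptprc-positive nuclei, made without the 9 genes and without integration of libraries, showed which nuclei carried them. Of 21 clusters, 6 had at least 10 of the 14 core genes in at least 10% of nuclei and at most 4 genes of any other cell type list, a rule set after seeing the data, and are called macrophage-like. They held 709 nuclei, 38.5% of the Ptprc-positive ones, with 398 from day 3 replicate 2, 277 from day 5, 21 from uninjured replicate 2, 11 from day 7 and 2 from day 3 replicate 1. Macrophage-like nuclei were 54% of the Ptprc-positive nuclei at day 5 and 13.4% at day 7. Among macrophage-like nuclei Mrc1 was at 3166 CPM in uninjured replicate 2, 2111 and 1416 in the day 3 replicates and 1006 at day 5. At day 7 it was at 1353 CPM, from 42 UMIs in 11 nuclei, of which 27 lay in 1 nucleus. After thinning, Mrc1 was found in 2 of these 11 nuclei (18.18%), against 91 of 277 (32.85%) at day 5. The level was thus not lower at day 7 than at day 5 while the share was. So few nuclei cannot settle the order of the 2 days. Each of the 9 genes was highest in a macrophage-like cluster. At a resolution of 0.5 in place of 1 this held for 8 of 9, Hmox1 being highest in an unnamed cluster.

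The macrophage-like clusters divided the genes among them. A cluster of 24 nuclei, 13 of them from uninjured replicate 2, led by Cd163, Gfra2 and Plekhg5, had 5752 CPM of Mrc1, 667 of Cd163 and 6760 of F13a1, and 0 UMIs of Arg1 and Gpnmb. A cluster of 166 nuclei, 157 from day 3 replicate 2, led by Arg1, Egln3 and Junos, had 917 CPM of Arg1, 928 of Msr1, 748 of Hmox1 and 3456 of F13a1, with Mrc1 at 1134. These clusters had the lowest and the highest Arg1 of the macrophage-like clusters, but both were high in F13a1, which was at 1195 and 910 CPM in the nuclei outside each. A cluster of 115 nuclei, 101 from day 5, led by Rnf128, Cd36 and Il7r, had the highest Hmox1 (1236 CPM) and Gpnmb (1124), with Arg1 at 409, Mrc1 at 422 and Cd163 at 0. A cluster of 57 nuclei, 48 from day 3 replicate 2, led by Gpnmb, Hgf and Fabp5, had the highest Trem2 (197 CPM) and 1042 of Gpnmb.

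The remaining macrophage-like clusters combined Mrc1 with little Arg1. A cluster of 188 nuclei, 176 from day 3 replicate 2, led by Selenop, Gm13710 and Hpgds, had the highest Fcrls (224 CPM) with 1680 of Mrc1 and 26.2 of Arg1. A cluster of 159 nuclei, 148 from day 5, with Phyhd1 and Gm13710 among its leading genes, had 1308 CPM of Mrc1 and 5.60 of Arg1. Since most clusters came mainly from 1 library, a cluster may stand for its library. Day 3 replicate 1 stood apart: 75 of its 126 nuclei fell in an unnamed cluster of 156 nuclei led by Gm48099, Gm42418 and Taco1, of median depth 1409 UMIs, in which Hmox1 was at 1036 CPM, Mrc1 at 1067 and Arg1 at 205. Hmox1 in that library was at 1001 CPM against 269 in the other day 3 library. The cluster held 232 Hmox1 UMIs over all libraries, while the library had 336, so some of these lay in other clusters. The part of the cluster in the Hmox1 level was not tested.

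**Figure D3:**
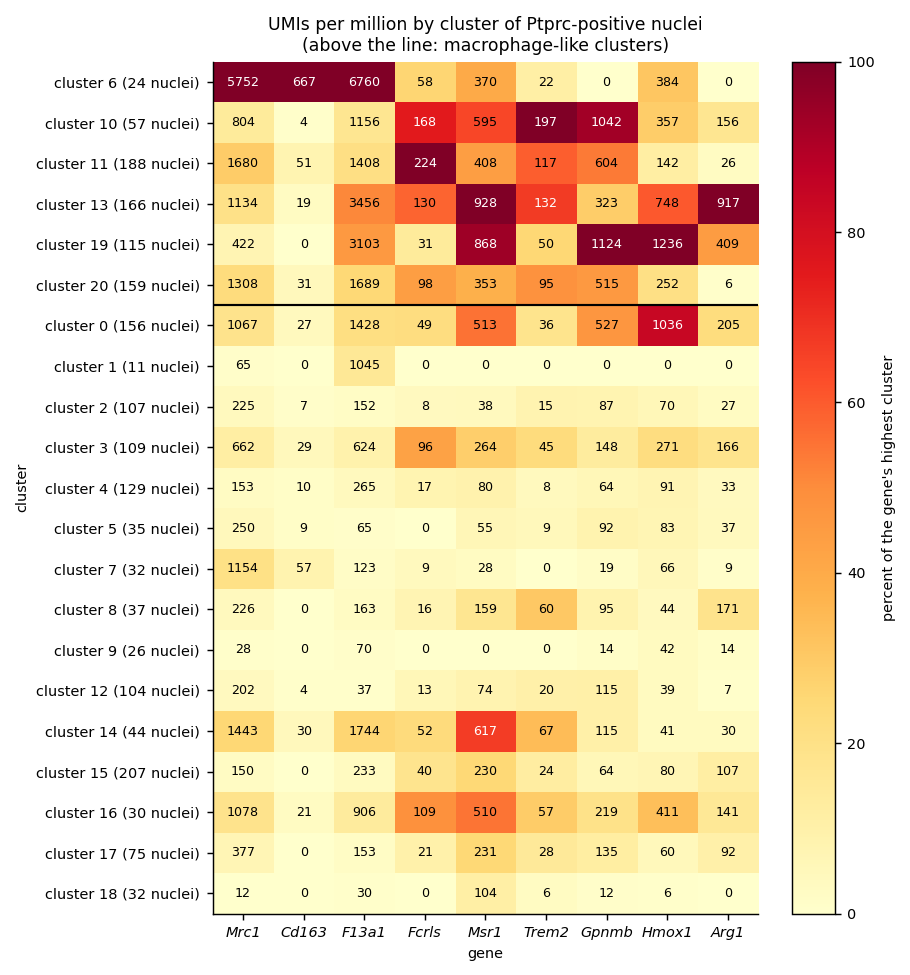
Levels of the 9 genes by cluster of Ptprc-positive nuclei, with numbers in CPM and colour as a percentage of each gene's highest cluster. Mrc1 and Cd163 peak together in the cluster of 24 nuclei in which Arg1 and Gpnmb are at 0, and Arg1 peaks with Msr1 in the cluster of 166 nuclei.

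Which genes accompanied or excluded each other was read per nucleus, on 1841 nuclei thinned to 500 UMIs, as the number of nuclei with both genes against the number expected from their shares within each library. Odds ratios are Mantel-Haenszel values over libraries and are descriptions, since nuclei of a library are not replicates. Of the 36 pairs, 24 were found together more often than expected (odds ratio above 1) and 12 less often, with a median odds ratio of 1.55, and 22 pairs had at least 5 expected nuclei. After thinning 866 nuclei had none of the 9 genes, 475 had 1, 326 had 2 and 174 had 3 or more.

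Mrc1 and Cd163 had the highest odds ratio, 10.3, with 14 nuclei against 4.43 expected, a small number. Each of the 4 libraries in which both were found had more double-positive nuclei than expected (3 against 1.18 in uninjured replicate 2, 2 against 1.21 and 4 against 0.693 at day 3, and 5 against 1.35 at day 5). F13a1 accompanied Mrc1, Msr1, Cd163 and Arg1. It was found with Mrc1 in 170 nuclei against 104.5 expected (odds ratio 2.86), with Msr1 in 112 against 71.9 (2.37), with Cd163 in 13 against 6.25 (4.65) and with Arg1 in 62 against 25.9 (5.55). With other genes the value fell on both sides of 1 depending on the nuclei and depth entered. Over the alternatives it ran from 0.67 to 2.62 with Gpnmb, 0.881 to 3.69 with Trem2, 0.957 to 3.89 with Fcrls and 0.966 to 3.31 with Hmox1. Of the Arg1-positive nuclei 54.5% and 64.2% at day 3 and 68.4% at day 5 also had F13a1, against 28.7%, 20.4% and 35.3% of the nuclei without Arg1.

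Hmox1 accompanied Arg1 in 30 nuclei against 10.4 expected (odds ratio 4.46). Among Arg1-positive nuclei 45.5% and 25.4% at day 3 and 42.1% at day 5 had Hmox1, against 24.3%, 7.38% and 8.32% of the others. Gpnmb was found with Trem2 (odds ratio 2.60, 10 nuclei against 4.51) and with Hmox1 (2.03, 29 against 17.0), and Fcrls with Mrc1 (3.57, 20 against 8.61).

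Mrc1 and Arg1 were together in 15 nuclei against 19.2 expected (odds ratio 0.73). The value was below 1 in each of the 3 libraries that had Arg1, at 0.488 and 0.828 for the day 3 replicates and 0.638 for day 5, each resting on 2 to 10 double-positive nuclei. Mrc1 and Gpnmb (0.85) and Gpnmb and Arg1 (0.80) were close to the expected number over all Ptprc-positive nuclei. No nucleus had Arg1 with Cd163 or with Fcrls, where 0.826 and 2.39 were expected. The values moved with depth: without thinning, 35 of the 36 odds ratios were above 1 and that of Mrc1 and Arg1 was 1.81.

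Within the 709 nuclei of macrophage-like clusters, a choice made after seeing the data, 20 pairs were below 1 and 16 above. Mrc1 and Arg1 were together in 8 nuclei against 20.0 expected (odds ratio 0.29). In day 3 replicate 2, 12.0% of Arg1-positive nuclei had Mrc1 against 31.3% of the others, and at day 5 11.8% against 34.2%. Gpnmb was under its expected number with both, 4 against 10.4 with Arg1 (0.32) and 19 against 34.3 with Mrc1 (0.40), so that at this depth each pair of the 3 genes shared fewer nuclei than expected. F13a1 with Arg1 stayed above 1 (4.26, 51 nuclei against 30.5), as did Hmox1 with Arg1 (3.31, 22 against 10.1) and Mrc1 with Cd163 (8.23, 12 against 5.63). At 1000 UMIs the Mrc1 and Arg1 value in these clusters was 0.42 and without thinning 0.64. The values with Gpnmb moved further toward 1, to 0.78 and 1.06 for Mrc1 (189 nuclei against 186.8 expected without thinning) and to 0.50 and 0.84 for Arg1 (58 against 62.6).

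**Figure D4:**
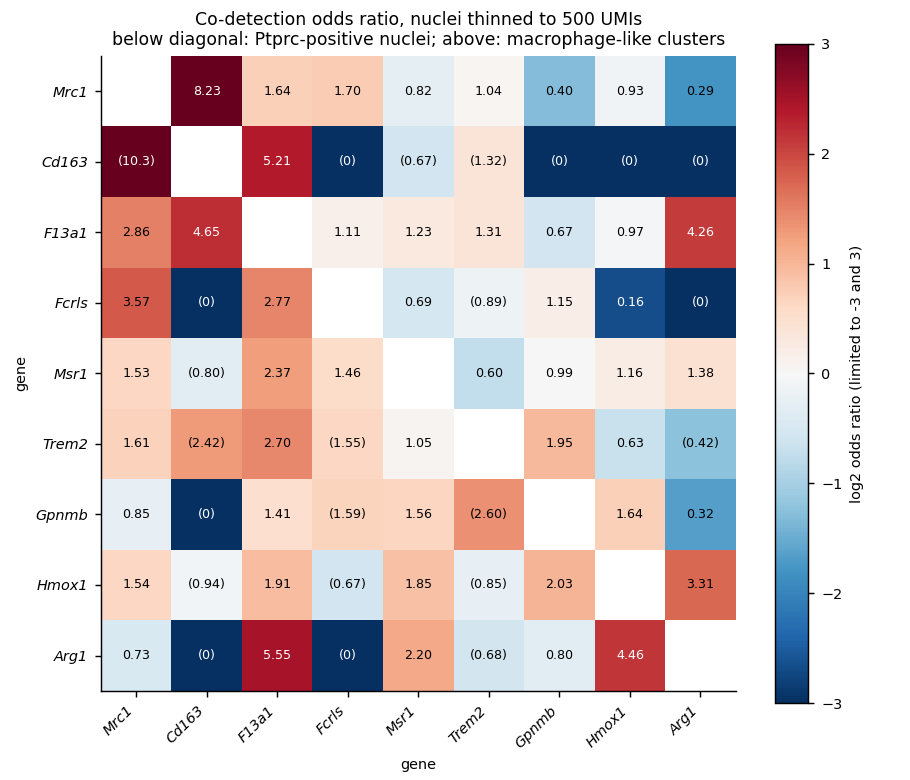
Odds ratios (log2 colour scale, limited to -3 to 3) for finding 2 genes in the same nucleus after thinning to 500 UMIs, over all Ptprc-positive nuclei below the diagonal and in macrophage-like clusters above it; parentheses mark under 5 expected nuclei. Mrc1 with Cd163 and F13a1 with Arg1 are above 1 in both, and Mrc1 with Arg1 is 0.73 below and 0.29 above the diagonal.

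To ask which other genes separated the nuclei, Ptprc-positive nuclei with an Arg1 UMI and no Mrc1 UMI were compared with those having Mrc1 and no Arg1, summed per library. Day 3 replicate 1 had 13 and 43 such nuclei, day 3 replicate 2 had 70 and 346, and day 5 had 21 and 214. In these libraries 14, 102 and 19 nuclei had both genes. The classes were set on unthinned nuclei. Unthinned stromal nuclei of the same libraries had Mrc1 in 6.67%, 21.5% and 4.08% and Arg1 in 2.5%, 7.73% and 0.453%. Uninjured replicate 2 (3 and 28) and day 7 (0 and 13) had too few Arg1 nuclei to enter. With library as a block, edgeR called 6 of 4501 genes, 0.133%, 3 in each direction (0.0667% each).

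Higher with Arg1 were Fn1, the fibronectin gene, Nt5e, an ectonucleotidase that makes adenosine, and Junos, a transcript antisense to Jun. Fn1 was at 335, 2209 and 1491 CPM in Arg1 nuclei of the day 3 replicates and day 5 and at 139, 331 and 388 in Mrc1 nuclei (log2 fold change 2.12 ± 0.31, adjusted p = 0.0252). Within each library the Arg1 nuclei were higher, although the 335 CPM of day 3 replicate 1 lay within the range of the Mrc1 nuclei. Nt5e was at 100.4, 136 and 160 against 18.5, 12.4 and 26.6 CPM (3.03 ± 0.45) and Junos at 536, 605 and 976 against 204, 155 and 211 CPM (1.86 ± 0.28), both with an adjusted p of 0.0252 and without overlap between classes. Reads of Jun and Junos may not be told apart where strand was not used in counting.

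Higher with Mrc1 were Pdgfc, a platelet-derived growth factor, Aoah, a lipase that inactivates bacterial endotoxin, and Hpgds, a prostaglandin D synthase. Pdgfc was at 417, 342 and 663 CPM in Mrc1 nuclei and 100.4, 52.7 and 124 in Arg1 nuclei (-2.54 ± 0.32, adjusted p = 0.0228). Aoah was at 250, 563 and 499 against 67.0, 136 and 71.0 CPM (-2.25 ± 0.33, adjusted p = 0.0252), and Hpgds at 139, 332 and 255 against 33.5, 55.5 and 53.3 CPM (-2.46 ± 0.40, adjusted p = 0.0410). The classes did not overlap for these 3 genes. The calls depended on the libraries entered: without day 3 replicate 2 or without day 5 edgeR called 0 genes, and without day 3 replicate 1 it called 48. The reason was not tested.

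Of the other 7 genes of the set 6 were tested and none was called, and Fcrls did not pass the filter on low counts. An unadjusted p under 0.05 was found for 4 of these 6 and for 315 of all 4501 genes tested. F13a1 was at 2176, 3058 and 4154 CPM in Arg1 nuclei and 1020, 1372 and 1780 in Mrc1 nuclei, higher in each library and without overlap (1.08 ± 0.20, adjusted p = 0.0682 by edgeR and 0.0065 by DESeq2, and 0.0038 without day 3 replicate 1). Cd163 was at 33.5, 2.78 and 0 CPM in Arg1 nuclei and 213, 54.1 and 43.8 in Mrc1 nuclei (-3.80 ± 0.73, adjusted p = 0.0837, and 0.0498 without day 3 replicate 1). Hmox1 was at 1674, 300 and 1385 against 862, 356 and 258 CPM (0.92 ± 0.40, adjusted p = 0.640), higher with Arg1 in 2 of 3 libraries. The remaining values were 0.68 for Msr1, -0.59 for Gpnmb and -1.14 for Trem2. Median depth differed between the classes in day 3 replicate 2, at 3813.5 UMIs for Arg1, 6121 for Mrc1 and 8366.5 for nuclei with both.

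The lists set these genes in context. Of the wound and glycolytic genes 1 of 7 was called, Fn1, and all 7 were above 0 (median 0.93 against -0.01 for all genes), with Vegfa at 1.72 ± 0.50 and Hif1a at 0.78 ± 0.28 not called. All 3 resident-type genes tested, Maf, Gas6 and Stab1, were below 0 (-0.96, -1.20 and -0.59) and none was called. Of the 13 core genes 0 was called (median -0.66), C1qb being at -1.24 ± 0.37. An unadjusted p under 0.05 was found for 7 of these 13, against 315 of 4501 among all genes. Apoe (-1.21 ± 0.28) and Cd9 (1.72 ± 0.45), of the lysosome and lipid list, differed in direction without a call. The heme and iron list had a median of 0.03 with 0 of 11 called. Il1b was the only inflammatory gene tested, at 0.78, and the scavenger list had 0 of 5 called (median -0.31). DESeq2 called 1 pathway gene, of the wound and glycolytic list.

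**Figure D5:**
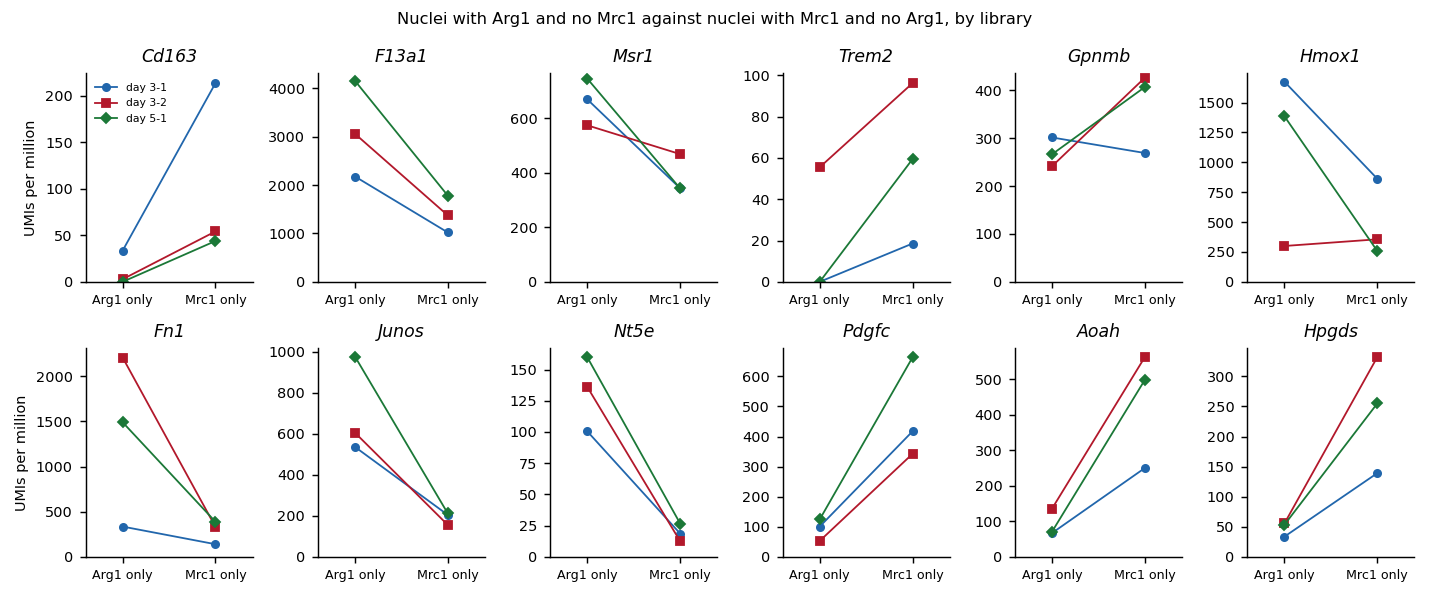
Levels (CPM, linear axis from 0, a scale for each gene) in nuclei with Arg1 and no Mrc1 and in nuclei with Mrc1 and no Arg1, joined by library (day 3 replicates 1 and 2 and day 5). F13a1 is higher and Cd163 lower in the Arg1 nuclei of all 3 libraries, and Fn1, Nt5e, Junos, Pdgfc, Aoah and Hpgds are the 6 genes called.

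For each gene, the genes that varied most like it were found by the mean over libraries of Pearson's r across Ptprc-positive nuclei, among 8483 genes. These values share depth within a library and are descriptions. Mrc1 was closest to Dab2, an endocytic adaptor (mean r 0.525 over 5 libraries, 0.361 to 0.828), Frmd4b (0.496) and Wwp1 (0.454). Cd163 was closest to Ddx60 (0.351) and Mrc1 (0.338) over 4 libraries. F13a1 was closest to Pid1 (0.428), Zeb2 (0.409) and Kcnk13 (0.395) and Msr1 to Pid1 (0.377), Sash1 (0.348) and Zeb2 (0.335), over 5 libraries each. Arg1 was closest to Junos (0.429, 0.417 to 0.453), F13a1 (0.356) and Cacna1d (0.309) over the 3 libraries with at least 10 Arg1 nuclei.

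The lysosomal and receptor genes had other neighbours. Gpnmb was closest to Fnip2, of the nutrient-sensing machinery at the lysosome (0.397), Lgals3, a galectin (0.397), and Psap, the prosaposin gene (0.384), over 4 libraries. Trem2 was closest to Ctsd (0.396), Lyz2 (0.381) and Apoe (0.380) and Fcrls to Apoe (0.355), Hpgds (0.322) and Ctsd (0.307), over 3 libraries each. Hmox1 was closest to Sash1 (0.340), Gclm, of glutathione synthesis (0.326), and Adam8 (0.292) over 4 libraries. Of the 9 genes, Mrc1 was among the neighbours of Cd163 and F13a1 among those of Arg1.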

How the data were processed

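Single-nucleus RNA-seq (10x Genomics 3′ chemistry) was analysed in 6 libraries of mouse periosteum. The authors deposited raw counts of UMIs for each gene and barcode, counted with Cell Ranger (6.0.0 or 7.1.0 per the submitters' processing notes) on mm10 from exonic and intronic reads and not normalized. Libraries held 1499281 to 29796296 UMIs, 55293921 over 13551 barcodes, and listed 31055 to 32287 genes, of which the 30406 common ones were used.

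The filter kept 200 to 5000 genes per nucleus, with less than 2% of UMIs mitochondrial and less than 1.5% ribosomal. Scrublet marked 43 of 8073 nuclei (0.533%) as doublets, 8 of them Ptprc-positive, which were kept. Counts were summed per library and class and tested with edgeR (filterByExpr, TMM, quasi-likelihood test, Benjamini-Hochberg adjustment over all genes tested), with Ptprc, and in the last comparison Arg1 and Mrc1, left out. DESeq2 was an alternative. Fold changes are differences of log2 values. Scripts were tested on simulated data with known changes, where the day 3 comparison estimated their size but called none of them.

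Clusters used 2000 variable genes, 20 components, 15 neighbours and leiden resolution 1, without the 9 genes and Ptprc. Stromal nuclei had at least 3 UMIs of the stromal markers and more of them than of other lineages, and myogenic nuclei left out in an alternative had at least 2 myogenic UMIs. The 9 genes and all lists were chosen with earlier results of these data known. Named besides the 9 genes were up to 4 genes per list with the smallest p, the called genes of the Arg1 and Mrc1 comparison (at least 50 CPM in the higher class, same direction in every library, at most 5 each way), the 3 most correlated genes (with a UMI in at least 5% of nuclei) and the 3 leading genes of a cluster, of which some are not reported here. No batch was given besides the Cell Ranger version, which was 7.1.0 for uninjured replicate 2 and both day 3 libraries. It was 6.0.0 for uninjured replicate 1, day 5 and day 7. The version thus changed between day 3 and day 5 and between the uninjured pools, and its part in the values was not tested. Protein sequences were not used here, and promoters of Arg1, Hmox1 and Msr1 were not analysed here.

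Counts were handled in Python 3.11.15 (pandas 2.3.3, scipy 1.17.1, numpy 2.4.6), clusters in scanpy 1.11.5 and anndata 0.12.19, figures in matplotlib 3.10.9, and fits in R 4.3.3 with DESeq2 1.42.0 and edgeR 4.0.16. Core nuclei with or without Ptprc, all nuclei and macrophage-like clusters were alternatives chosen after seeing the data.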

Additional observations from a re-analysis of the deposited data

How the results depend on the processing

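The higher level of the 9 genes in Ptprc-positive nuclei kept its direction and its call under each of 15 alternatives in which a gene could be tested, although without the library block 1665 genes were called in place of 3969. The labels give the replicates no numbers that pair them. No paired analysis was possible because the replicate numbers follow the order of deposit. For day 3 against uninjured, 43 genes were called by edgeR, 8 by DESeq2, 4 with at least 2 Ptprc UMIs, 13 without myogenic nuclei, 87 in core nuclei, 246 in core nuclei with or without Ptprc, 297 in all nuclei, and 0 to 23 with 1 library left out (0 without uninjured replicate 2 or day 3 replicate 2, 16 without day 3 replicate 1, 23 without uninjured replicate 1). Members called higher numbered 0, and 1, 1 and 2 in the last 3 sets of nuclei. With DESeq2, no filter on low counts, a cut of 2 Ptprc UMIs, core nuclei with or without Ptprc and all nuclei, Mrc1 turned to 0.10, 0.03, 0.02, 1.95 and 2.37 (log2), and -0.89 to 13.88 with 1 library left out, the highest without uninjured replicate 2, which leaves uninjured at 0 UMIs. In core nuclei with or without Ptprc and in all nuclei Cd163 turned to 1.10 and 0.92, F13a1 to 1.80 and 2.37, Fcrls to 2.55 and 3.30 and Trem2 to 2.27 and 3.16. Trem2 was 0.17 without doublets and Gpnmb -0.08 without myogenic nuclei. With 1 library left out F13a1 ran from -1.0 to 2.76, Fcrls from -1.29 to 0.19 and Trem2 from -2.02 to 9.66. The cause of these changes was not tested.

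Between Arg1 and Mrc1 nuclei 6 genes were called, 15 by DESeq2, 11 with RLE size factors, 80 with no filter, 164 with classes set on thinned nuclei, 23 in core nuclei, 36 without myogenic nuclei, 0 with a cut of 2 UMIs, 0 with no upper limit on genes and 0 to 48 with 1 library left out. Of the 9 genes 1 (F13a1) was higher with Arg1 by DESeq2, RLE, no filter, without doublets and without myogenic nuclei, 2 with thinned classes, and 0 to 1 with 1 library left out; 1 was lower with no filter, 2 with thinned classes and 0 to 1 with 1 library left out. Pairs below an odds ratio of 1 numbered 12, 5 at 1000 UMIs, 1 without thinning, 20 in macrophage-like clusters, 19 there at 1000 UMIs and 6 there without thinning. Few nuclei limit uninjured replicate 1 and day 7.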

Other observations

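Mrc1 was also read in a cluster of 32 nuclei led by Gm2682, Skap1 and Themis, the last a T cell gene, at 1154 CPM, but 95 of its 122 UMIs (77.9%) lay in 1 nucleus. In the same cluster 5 nuclei had an Mrc1 UMI and 1 nucleus held all 6 Cd163 UMIs. Arg1 in a cluster of 37 nuclei led by Cyyr1, Ptprb and Prex2 rested likewise on 39 of 43 UMIs (90.7%) in 1 nucleus. A cluster of 32 nuclei led by Nyap2, Dgki and Slc9b2, with the osteoclast genes Atp6v0d2 and Ctsk among its 10 leading genes, had 17 Msr1 UMIs, 2 Mrc1 UMIs and 2 Gpnmb UMIs.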
